A study of Canis lupus familiaris with 25 samples.

Results

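The genes described here are 10 immune checkpoint ligands, receptors and related molecules, namely CD274, PDCD1LG2, PDCD1, CTLA4, LAG3, TIGIT, CD80, CD86, CD276 and IDO1. They were taken by name, and all 10 had a row of that symbol in the count table, which holds 24532 genes. The counts came from QuantSeq 3′ libraries, which read each polyadenylated transcript near its 3′ end, prepared from formalin-fixed, paraffin-embedded (FFPE) archive tissue of 25 canine tumors. Both entities are gland tumors of the perianal region of the dog: the hepatoid gland adenoma (HGA) is benign and the apocrine gland anal sac adenocarcinoma (AGASAC) is malignant. The groups were 10 HGA from dogs of 8 to 14 years, 11 primary AGASAC from dogs of 8 to 12.5 years, and 4 sublumbar lymph node metastases from the dogs that also gave primary tumors 1 to 4, aged 8 to 10 years. The tumors were spontaneous ones of pet dogs, removed for diagnosis or therapy and trimmed of adjacent tissue, and no normal gland was among the samples.

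Checkpoint receptors such as PD-1, CTLA-4, LAG-3 and TIGIT sit mainly on activated T cells and dampen their response when they meet their ligands on tumor cells or antigen-presenting cells. PD-L1 and PD-L2 bind PD-1, whereas CD80 and CD86 bind both the activating receptor CD28 and the inhibitory receptor CTLA-4. IDO1 acts through metabolism: it degrades tryptophan to kynurenine, and it is known as a gene induced by interferon gamma. In bulk tissue these transcripts report on the cells present as much as on each cell, and fewer cells of a type cannot be told apart from less RNA per cell.

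The counts assigned to genes were 1562347 to 6389555 per HGA, 2581453 to 4218340 per primary AGASAC and 2857541 to 3289546 per metastasis. A count of 0 therefore allowed up to 3 counts, or 0.543 to 1.84 CPM (counts per 1000000 counts of the library) depending on the sample, and such limits cover counting error only, since no molecular identifiers were used. All CPM were scaled by TMM factors over the 25 samples. The labels were checked against epithelial markers. KRT8, a keratin of simple glandular epithelium, had 1 count in all HGA together, and KRT79, found in HGA at a mean of 1599 CPM, had 0 counts in every primary AGASAC. HGA 4 and HGA 10 stood apart from the other HGA on the second principal component, which held 5.72% of the variance, and results that lean on HGA were recomputed without this pair. Nothing in the labels says that samples of a group share a dog, apart from the 4 metastases and primary tumors 1 to 4.

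The checkpoint genes were sparse in these libraries. Over all 25 samples, the median raw count was 72 for CD86, 40 for CD80 and 20 for CD276, 10 for CD274 and PDCD1, 8 for PDCD1LG2, 4 for IDO1, 2 for LAG3 and TIGIT, and 1 for CTLA4. The 4 T-cell receptors PDCD1, CTLA4, LAG3 and TIGIT together gave 26 counts in all 10 HGA, with a median of 1 per tumor and a maximum of 10 in HGA 8. In the 11 primary AGASAC the same receptors gave 601 counts, from 9 in AGASAC 3 to 178 in AGASAC 11 with a median of 55, and in the 4 metastases 162 counts, from 30 to 50 per sample. One HGA, HGA 8, reached the lower end of the AGASAC range with its 10 counts.

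**Figure D1:**
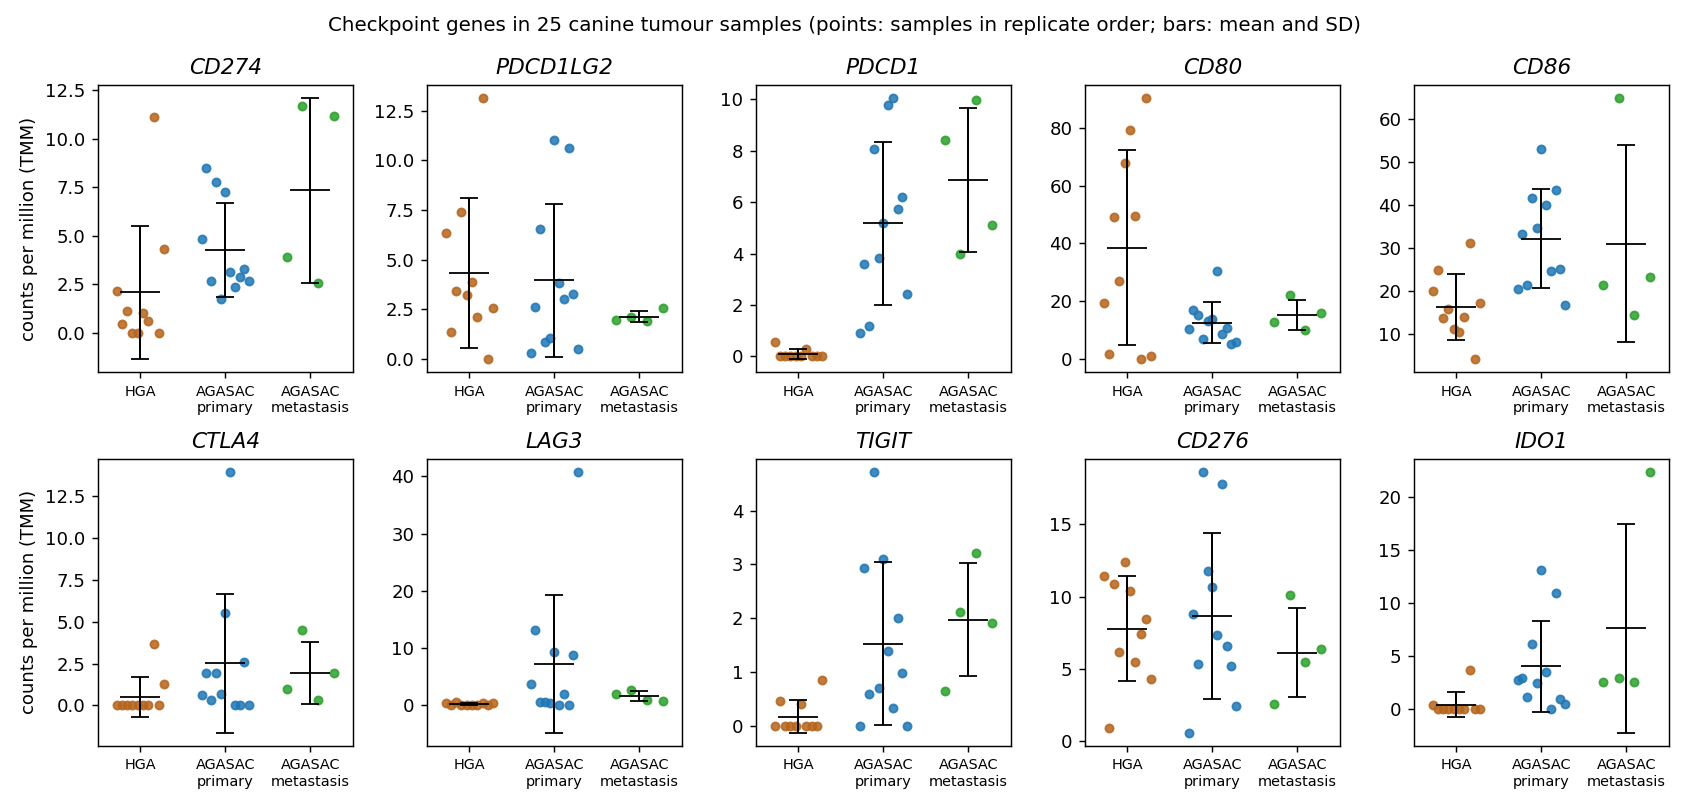
Level of each checkpoint gene in CPM (TMM-scaled; vertical axis, a separate linear scale for each gene) in 10 HGA, 11 primary AGASAC and 4 AGASAC metastases. Points are samples, horizontal bars are means and vertical bars are SD. PDCD1 lies at 0 in 8 of 10 HGA and above every HGA in all primary AGASAC and metastases, whereas CD80 spreads from 0 to 90.4 CPM within HGA.

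Genes were compared with edgeR's quasi-likelihood test. A gene was called at a Benjamini-Yekutieli adjusted p (padj) up to 0.05 when its log2FC also reached −1 or 1, where the log2FC is that of the first-named group relative to the second. The comparison HGA versus AGASAC addressed the difference between the benign and the malignant entity in primary tumors. Only CD80, CD86 and CD276 passed its filter on low counts, and 0 of these 3 genes were called by edgeR, while 25.1% of all 12070 tested genes were called. At an unadjusted p under 0.05 there were 2 of 3, beside 53.7% of all tested genes, and DESeq2, which tested all 10 genes, called 3 of them (PDCD1, LAG3 and IDO1), beside 18.5% of all genes it tested. The other 7 genes were therefore also fitted without a filter, among 24332 genes of which 16.2% were called in either direction and 8.39% as higher in AGASAC. In that fit PDCD1 and LAG3 were called, both as higher in AGASAC. HGA versus metastases called PDCD1 alone of the 5 checkpoint genes that passed the filter, beside 16.1% of 13195 tested genes in either direction and 7.69% as higher in metastases. PDCD1 passed that filter through its counts in the metastases, so nothing is read from this share. Without a filter 9.39% of 23678 genes were called in that comparison, 5.17% as higher in metastases, and PDCD1 was again the only checkpoint gene among them. HGA versus AGASAC and HGA versus metastases share their 10 HGA, so their values are given side by side and are not independent of each other.

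**Figure D2:**
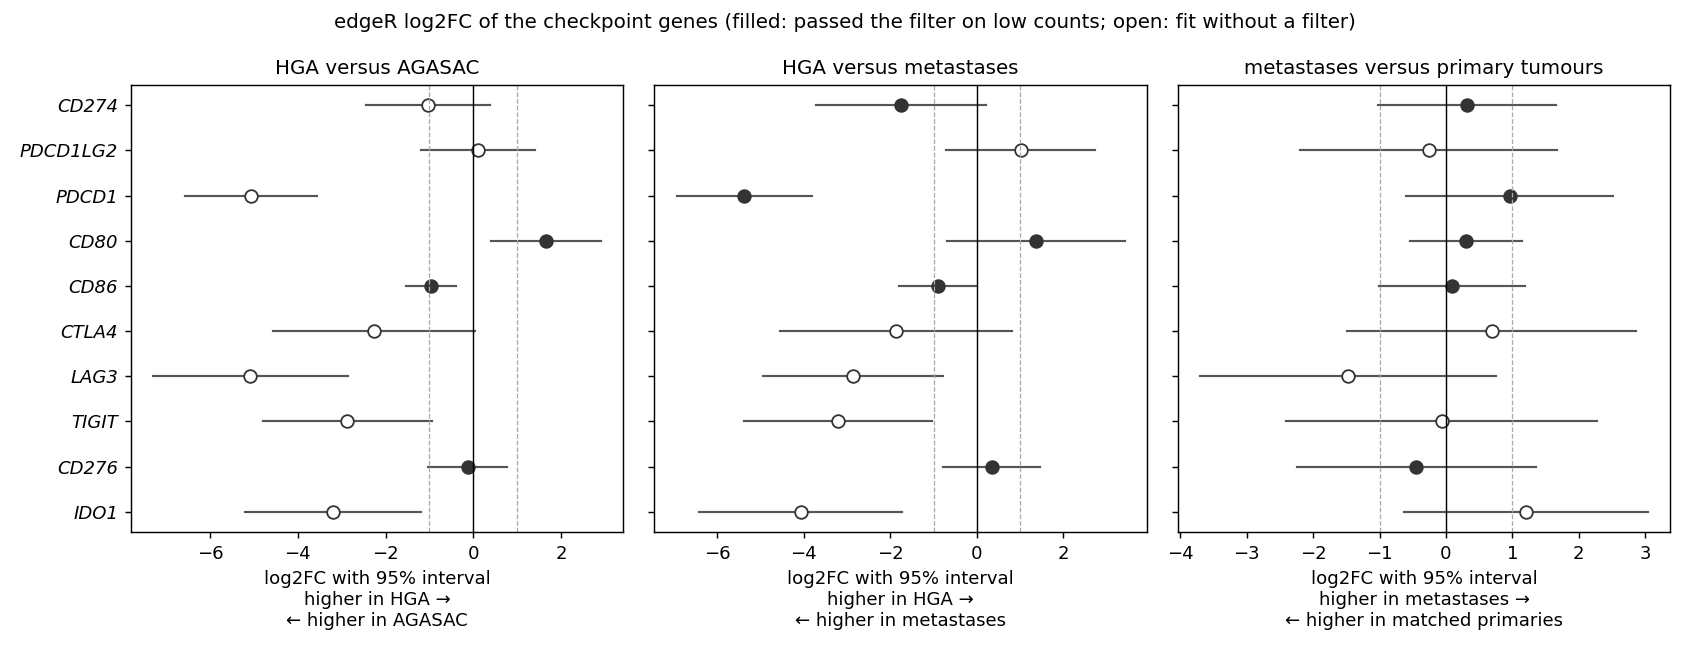
Fitted log2FC (horizontal axis, log2 scale) of the 10 checkpoint genes in each comparison, with 95% intervals as lines. Filled points passed the filter on low counts and open points come from the fit without a filter. Dashed lines mark the log2FC threshold of −1 and 1. PDCD1 lies at −5.06 without a filter in HGA versus AGASAC and at −5.37 with the filter in HGA versus metastases. Each interval of metastases versus primary tumors includes 0.

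PDCD1 encodes PD-1, the inhibitory receptor of exhausted and activated T cells, and it separated the entities most clearly. Its raw counts were 0 in 8 of 10 HGA and reached 3 in HGA 1, a total of 4 counts. In primary AGASAC they ran from 3 to 30 with a median of 15, and in metastases 1 to 4 they were 26, 15, 31 and 16. Every primary AGASAC and every metastasis was above every HGA on the CPM scale, as was the case in one direction or the other for 5.01% of 24332 genes between HGA and AGASAC and for 9.96% of 23678 genes between HGA and metastases. At its edge this order is not resolved: AGASAC 1 and HGA 1 both had 3 counts, at 0.904 and 0.543 CPM. AGASAC 3 had 4 counts (1.19 CPM), while the 3 counts that a 0 allows reached 1.84 CPM in HGA 4. The mean was 0.0846 ± 0.187 CPM in HGA (SD, n = 10), 5.18 ± 3.17 in primary AGASAC (n = 11) and 6.87 ± 2.80 in the metastases (n = 4). In the fits without a filter, the log2FC was −5.06 in HGA versus AGASAC (SE 0.73, edgeR padj = 5.93e-05) and −5.45 in HGA versus metastases (SE 0.88, edgeR padj = 0.00158). With the filter, which PDCD1 passed through its counts in the metastases, the latter was −5.37 (SE 0.74, edgeR padj = 0.000425). Since HGA held only 4 counts, the ratio of the pooled counts per library size is the plainer measure: AGASAC over HGA it was 35.7 with a 95% counting interval of 13.7 to 132, and metastases over HGA 47.5 with an interval of 17.9 to 178. Both counting intervals leave out the spread between dogs.

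The difference in PDCD1 had the same sign within RNA extraction batches, which the study lists for each sample. In batch 5 the counts were 0 in 3 HGA and 4 to 28 in 3 primary AGASAC. Batch 6 had 0 to 3 counts in 3 HGA and 15 to 29 in 2 AGASAC, and batch 8 had 0 to 1 in 2 HGA and 3 to 11 in 3 AGASAC. The log2FC in these batches was −6.92, −4.46 and −4.02, none of them called by edgeR with 5 or 6 samples. In batch 8 the lowest AGASAC had no more than the 3 counts that a 0 allows. Without HGA 4 and HGA 10 the log2FC was −4.84 (edgeR padj = 0.000268). The naming series of the sequencing files was less balanced between the entities. Series A held 9 HGA and 3 primary AGASAC, and series B held 1 and 7. Within series A, PDCD1 was not called without a filter, and LAG3 was the only checkpoint gene called. The primary tumors of that series, AGASAC 1, 2 and 3, had 3, 11 and 4 PDCD1 counts.

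CD274 encodes PD-L1, the main ligand of PD-1 on tumor and myeloid cells. Raw counts in HGA were 0 at the lowest, 2 at the median and 27 at the highest, and the corresponding values in primary AGASAC were 5, 10 and 28. Metastases 1 to 4 had 12, 44, 8 and 35 counts. HGA 8 held 27 of the 59 counts of all HGA, at 11.1 CPM beside 4.30 in HGA 10 and 2.17 in HGA 1, and these 3 tumors lay within or above the AGASAC range, which began at 1.74 CPM. Mean levels were 2.08 ± 3.43 CPM in HGA, 4.28 ± 2.42 in primary AGASAC and 7.33 ± 4.77 in the metastases, so the differences were of the size of the SD. The log2FC was −1.03 without a filter in HGA versus AGASAC (95% interval −2.44 to 0.39) and −1.75 in HGA versus metastases (−3.72 to 0.21), and edgeR gave a padj of 1 for both. Leaving out HGA 8 moved these values to −1.91 and −2.66, again without a call.

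PDCD1LG2 encodes PD-L2, the second ligand of PD-1, and is known mainly from dendritic cells and macrophages. Its levels lay close together in HGA and primary AGASAC: 0, 6.5 and 35 raw counts at the lowest, median and highest HGA, and 1, 9 and 37 in primary AGASAC. The metastases had 6, 8, 6 and 8 counts, the narrowest range of the 10 genes in that group. The mean was 4.35 ± 3.78 CPM in HGA and 3.96 ± 3.84 in primary AGASAC, with a log2FC of 0.10 whose 95% interval ran from −1.20 to 1.41. Its sign turned when library size alone was used for scaling. The metastases had a mean of 2.14 ± 0.29 CPM, and HGA versus metastases gave a log2FC of 1.01 (−0.71 to 2.73, edgeR padj = 1).

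CTLA4, the receptor that competes with CD28 for CD80 and CD86, was the rarest of the 10 genes at the median. It was at 0 in 8 of 10 HGA, with 9 counts in HGA 8 and 3 in HGA 10. Primary AGASAC ranged from 0 to 40 counts with a median of 2, and AGASAC 7 alone held 40 of 82 counts. Metastases 1 to 4 had 3, 17, 1 and 6 counts. Neither the log2FC of −2.26 in HGA versus AGASAC (95% interval −4.56 to 0.05) nor that of −1.86 in HGA versus metastases (−4.55 to 0.82) was called by edgeR without a filter, both at a padj of 1. Leaving out AGASAC 7 changed the first value to −1.38, and leaving out HGA 8 to −3.87.

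CD80 and CD86 are paired ligands of CD28 and CTLA4, yet they differed in their direction between the tumors. CD80 raw counts in HGA spread from 0 through a median of 96.5 to 389, whereas primary AGASAC ran from 16 through 38 to 87 and the metastases had 39, 83, 31 and 50 counts. Within HGA, 7 tumors lay between 19.4 and 90.4 CPM, and 3 lay at or near 0: HGA 8 had 0 counts, HGA 10 had 2 and HGA 2 had 4. The mean was 38.5 ± 33.7 CPM in HGA, 12.5 ± 7.07 in primary AGASAC and 15.2 ± 5.19 in the metastases. The log2FC was 1.65 in HGA versus AGASAC (SE 0.61, 95% interval 0.39 to 2.91, edgeR padj = 0.288) and 1.36 in HGA versus metastases (SE 0.97, −0.69 to 3.41, edgeR padj = 1). Neither was called, although the unadjusted p was 0.0123 for the first. Within extraction batches 5, 6 and 8 the log2FC was 1.08, 1.54 and 2.28. In batch 8 the 2 HGA had 163 and 389 counts and the 3 AGASAC 34 to 52.

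CD86, which is typical of macrophages and other antigen-presenting cells, had the opposite sign. Its raw counts were 10, 43 and 111 at the lowest, median and highest HGA and 68, 100 and 154 in primary AGASAC, and the metastases had 66, 245, 45 and 73. The mean was 16.3 ± 7.66 CPM in HGA, 32.3 ± 11.5 in primary AGASAC and 31.1 ± 22.9 in the metastases, where metastasis 2 alone reached 65.0 CPM. The log2FC of −0.96 in HGA versus AGASAC (SE 0.28, 95% interval −1.53 to −0.39) missed both thresholds, at an edgeR padj of 0.0629. It was called at −1.14 with the extraction batch as a covariate (edgeR padj = 0.0345), and also when HGA 2, HGA 8, AGASAC 1 or AGASAC 11 was left out, with a log2FC between −1.12 and −0.84 over all 21 fits that left out a tumor. HGA versus metastases gave −0.91 (−1.81 to −0.0031, edgeR padj = 1), and −0.25 without metastasis 2.

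The levels of CD86 ran with those of macrophage markers in both entities. Summed CPM of 10 macrophage markers, among them CD68, CD163 and CSF1R, ranged from 104 to 341 in HGA, from 197 to 566 in primary AGASAC and from 209 to 537 in the metastases. On the log2(CPM + 1) scale, CD86 and the marker sum had a Pearson r of 0.947 and a Spearman rho of 0.903 within the 10 HGA, and r was 0.863 without HGA 8 and HGA 9, the tumors farthest from the median sum. Within the 11 primary AGASAC they were 0.818 and 0.727, and r was 0.621 without AGASAC 6 and AGASAC 11. CD80 behaved differently within HGA, with an r of −0.761 and a rho of −0.903 against the same sum, and an r of −0.672 without HGA 8 and HGA 9. HGA 8, the HGA with the highest summed CPM of macrophage, T-cell and B-cell markers, had no CD80 count at all. Within primary AGASAC the r of CD80 and the sum was 0.213. These are descriptions of samples that also differ in depth and tissue composition, and what part the macrophage content had in the values of CD86 and CD80 was not tested.

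**Figure D3:**
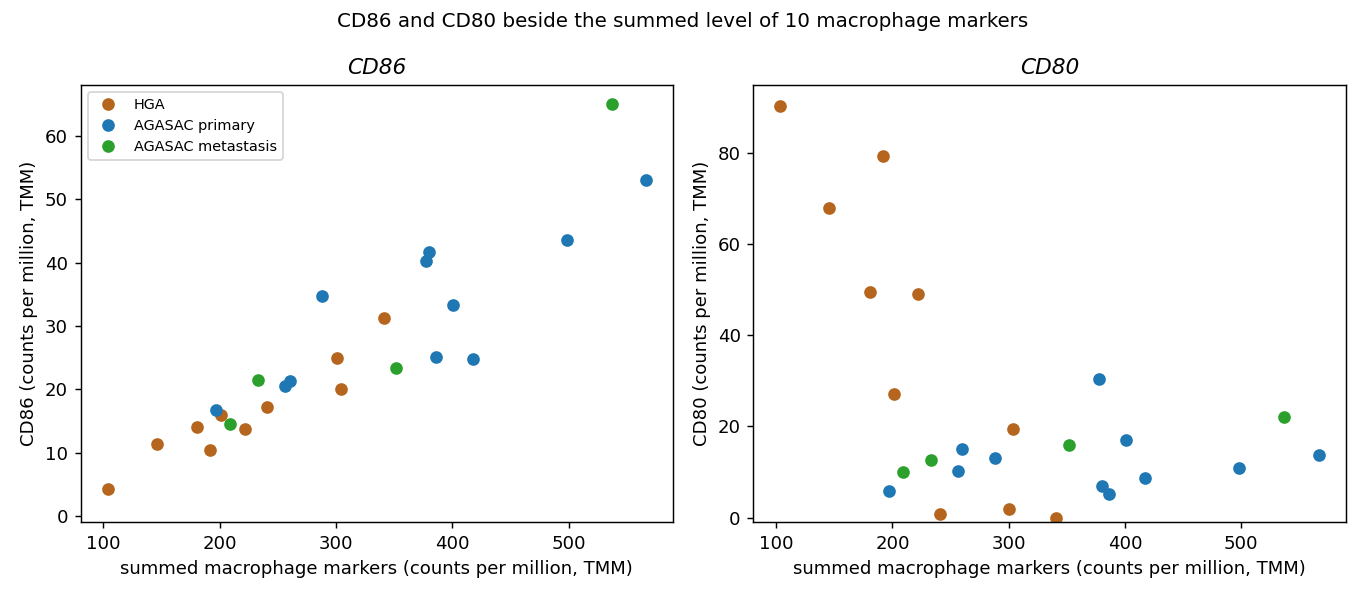
CD86 (left) and CD80 (right) in CPM (TMM-scaled) against the summed CPM of 10 macrophage markers in the same sample. Each point is one of 25 samples, colored by group. CD86 is higher where the marker sum is higher, and within HGA the CD80 points go from 90.4 CPM at the lowest marker sum to 0 at the highest.

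The genes whose levels were most like those of these 2 ligands were of different kinds. For CD86, the closest of 12526 genes over the 25 samples were C1QC (r = 0.889), C1QB (0.878) and CD48 (0.875), the first pair being complement genes of macrophages. After subtraction of the 3 group means they were CTSS (0.901), SPI1 (0.864) and C1QC (0.845), again genes of the myeloid lineage. CD80 was most like TCTN1 (0.773) and BLVRB (0.742), and after subtraction of the group means TCTN1 (0.818), SLC24A5 (0.815) and ASCL4 (0.794). CD80 and TCTN1 ran together within the 10 HGA, with an r of 0.916, but not within the 11 primary AGASAC, with an r of −0.077. TCTN1 was picked for this likeness, so the r values describe these samples only.

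LAG3, an inhibitory receptor for MHC class II and other ligands, was the second gene called without a filter between HGA and AGASAC. Raw counts in HGA were 0 in 6 tumors and at most 2, with a total of 5. In primary AGASAC they ran from 0 to 168 with a median of 6, and the metastases had 6, 10, 3 and 2. AGASAC 11 held 168 of the 285 AGASAC counts, at 40.8 CPM beside 13.1 in the next tumor, and 2 AGASAC had none, so the groups overlapped. The log2FC was −5.08 (SE 1.08, edgeR padj = 0.00649) and −4.17 without AGASAC 11 (edgeR padj = 0.0264). With the extraction batch as a covariate it was −3.91 and no longer called (edgeR padj = 0.0685). AGASAC 11 and AGASAC 10, which had 27 counts, were the only samples of extraction batch 4, which held no HGA. In batch 5 a difference was not detectable at this depth, with 0 to 1 counts in 3 HGA and 0 to 2 in 3 AGASAC. All 4 metastases lay above every HGA on the CPM scale, beside 9.96% of 23678 genes without overlap in either direction. Metastases 3 and 4 had only 3 and 2 counts and HGA 1 also had 2, within the 3 counts that a 0 allows. This order is therefore not resolved at this depth. The log2FC of −2.87 was not called (edgeR padj = 0.502 without a filter).

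TIGIT is a T-cell and NK-cell receptor for PVR. It had 5 counts over all HGA, at most 2 per tumor, and 0 in 7 of 10. Primary AGASAC ran from 0 to 17 counts with a median of 3, and the metastases had 2, 8, 10 and 6. The log2FC was −2.88 in HGA versus AGASAC (95% interval −4.80 to −0.95, edgeR padj = 0.202) and −3.21 in HGA versus metastases (−5.38 to −1.04, edgeR padj = 0.357), without a filter and without a call. The pooled counts per library size were 8.57 times as high in AGASAC as in HGA, with a counting interval of 3.45 to 27.5 that leaves out the spread between dogs.

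CD276 encodes B7-H3, a molecule of the same family as CD80 and CD86 that is widespread on epithelial tumors. The lowest, median and highest raw counts were 2, 18.5 and 63 in HGA and 2, 23 and 67 in primary AGASAC, and the metastases had 8, 38, 17 and 20. The groups overlapped almost completely, with means of 7.77 ± 3.63, 8.66 ± 5.73 and 6.13 ± 3.09 CPM. The log2FC of −0.13 in HGA versus AGASAC had a 95% interval of −1.02 to 0.76, so that differences up to these bounds were not detectable at this depth. Its sign was positive within extraction batches 5 and 8 and negative within batch 6. HGA versus metastases gave 0.35 (−0.77 to 1.47). The level of CD276 was not much like that of any other gene, the closest being GSAP (r = 0.675), BMP2 (0.671) and AKT2 (0.668).

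IDO1 was listed at 0 in 8 of 10 HGA, with 2 counts in HGA 1 and 9 in HGA 8. Primary AGASAC had 0 to 38 counts with a median of 9, only AGASAC 8 being at 0, and metastases 1 to 4 had 8, 11, 8 and 70 counts. The mean was 0.406 ± 1.16 CPM in HGA, 4.03 ± 4.31 in primary AGASAC and 7.61 ± 9.84 in the metastases. In the fit without a filter the log2FC was −3.20 in HGA versus AGASAC (SE 0.97, edgeR padj = 0.134) and −4.07 in HGA versus metastases (SE 1.13, edgeR padj = 0.145). Neither was called. Without HGA 8 the values were −5.28 (edgeR padj = 0.0015) and −6.14 (edgeR padj = 0.00207), both called. IDO1 was also called in some other settings. In HGA versus AGASAC these were the extraction batch as a covariate (log2FC −3.88, edgeR padj = 0.0418), extraction batch 6 alone, which does not hold HGA 8 (−5.39, edgeR padj = 0.0115) and DESeq2 (−3.31, padj = 0.0335), and in HGA versus metastases the fit of all 25 samples with a filter (−4.06, edgeR padj = 0.0431). Pooled counts per library size were 10.2 times as high in AGASAC as in HGA, with a counting interval of 5.56 to 21.0. That interval leaves out the spread between dogs, and HGA 8 held 9 of the 11 HGA counts.

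The comparison of metastases versus primary tumors asked whether the checkpoint genes differed between the lymph node and the anal sac site of the same 4 dogs. CD274, PDCD1, CD80, CD86 and CD276 passed the filter, and 0 of 5 were called by edgeR, as were 0 (0%) of 12629 tested genes. At an unadjusted p under 0.05 there were 0 of 5 and 145 genes (1.15%). DESeq2 called 0 of 10 checkpoint genes and 5 of 21877 genes (0.0229%). With the dog as a block, which pairs samples of the same animal, edgeR called 1 gene of 12629, none of the 10. On simulated counts of this comparison, edgeR recovered 0 of 195 tested genes set to a log2FC of 2, and 176 of 198 set to 4. The absence of calls therefore says little about differences of the smaller size, in the checkpoint genes or in all genes.

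PDCD1 had the largest fitted difference of the 5, with 3, 11, 4 and 29 counts in primary tumors 1 to 4 and 26, 15, 31 and 16 in the metastases of the same dogs. It was higher in the metastasis of 3 dogs. The differences were largest in dogs 1 and 3, whose primary tumors had the lowest PDCD1 counts of all AGASAC. The log2FC was 0.96 with a 95% interval of −0.60 to 2.52 (edgeR padj = 1). CD274 was higher in dogs 2 and 4 than in dogs 1 and 3 at both sites. Dogs 2 and 4 had 26 and 28 counts in the primary tumor and 44 and 35 in the metastasis, and dogs 1 and 3 had 16 and 9 in the primary tumor and 12 and 8 in the metastasis. Its log2FC was 0.31 (−1.03 to 1.65). CD80 (0.31, −0.54 to 1.15), CD86 (0.09, −1.0 to 1.19) and CD276 (−0.45, −2.25 to 1.36) had differences of either sign within the dogs.

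**Figure D4:**
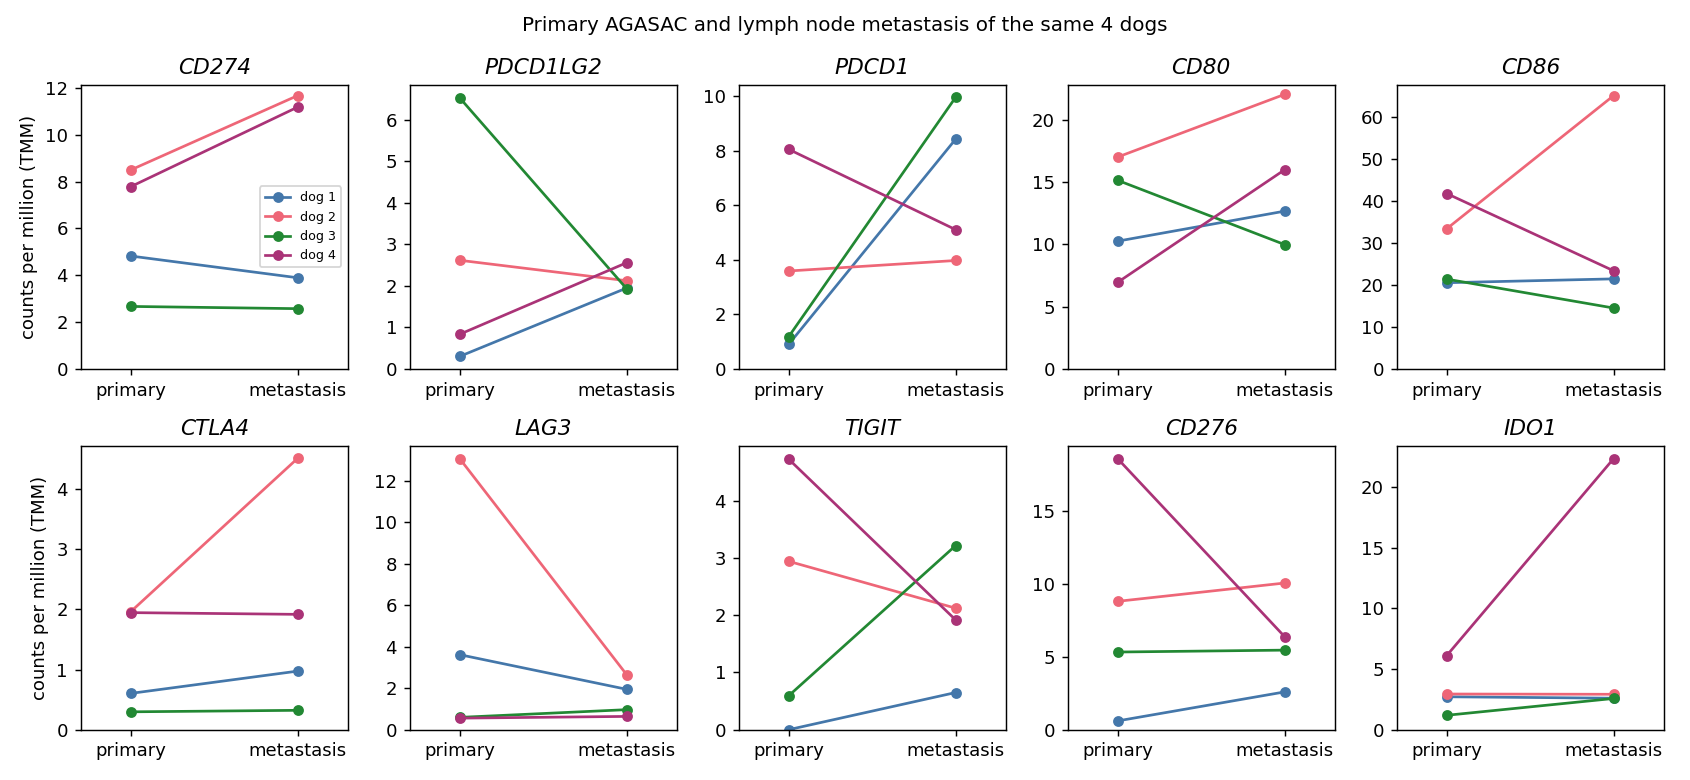
CPM (TMM-scaled; vertical axis, a separate linear scale for each gene) of the 10 checkpoint genes in the primary AGASAC and the lymph node metastasis of the same dog. Each line is one of 4 dogs. No gene moves in one direction in all dogs; IDO1 of dog 4 reaches 22.4 CPM in the metastasis, and LAG3 of dog 2 is 13.1 CPM in the primary tumor.

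Of the genes that did not pass the filter, IDO1 had 9, 9, 4 and 22 counts in primary tumors 1 to 4 and 8, 11, 8 and 70 in the metastases. Dog 4 was highest at both sites. Its log2FC of 1.21 (95% interval −0.62 to 3.05) was −0.27 without metastasis 4. LAG3 had 12, 40, 2 and 2 counts in the primary tumors and 6, 10, 3 and 2 in the metastases, with a log2FC of −1.47 (−3.70 to 0.76) that was −0.02 without AGASAC 2. TIGIT, CTLA4 and PDCD1LG2 had log2FC of −0.07, 0.69 and −0.26, and each of these intervals was more than 3 log2 units wide. The primary tumor and the metastasis of dog 4 were extracted in different batches (6 and 5), those of the other dogs in the same batch.

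Markers of the cells that carry these receptors were compared beside them. The T-cell list of 10 genes, all found, summed to 1.84 to 60.0 CPM in HGA (median 15.8), 19.0 to 616 in primary AGASAC (median 55.0) and 52.1 to 75.6 in the metastases. In AGASAC 59.0% of the sum came from CD8B, so the CD3 genes give a clearer view: CD3D, CD3E and CD3G together had 0 to 47 counts in HGA (median 7.5), 20 to 150 in primary AGASAC (median 34) and 82 to 115 in the metastases (median 94). HGA 7 with 25 counts and HGA 8 with 47 were the HGA that reached the range of AGASAC. CD8A had the opposite order of means, with 5.86 ± 12.1 CPM in HGA and 1.96 ± 2.65 in primary AGASAC, and was at 0 in 6 of 10 HGA. IL2RA, known as a marker of regulatory and activated T cells, had 1 count in all HGA together and 611 in the 11 primary AGASAC. Of these, 244, 181 and 124 were in AGASAC 1, 2 and 10, while AGASAC 8 and 9 were at 0. Primary tumors 1, 2 and 10 had only 32, 36 and 21 counts of the CD3 genes together. In every other primary tumor IL2RA had fewer counts than the CD3 genes. Metastases 1 to 4 had 202, 190, 3 and 5 IL2RA counts. Which cells carried IL2RA was not tested. FOXP3, the factor of regulatory T cells, had 24 counts in HGA and 44 in primary AGASAC. Of the T-cell markers, only CD8B and CD2 passed the filter in HGA versus AGASAC. CD8B was called, as higher in AGASAC (log2FC −3.84, edgeR padj = 0.0411), but AGASAC 10 held 1814 of its 2146 counts there, and without that tumor the log2FC was −1.27 (edgeR padj = 0.968). Of the NK-cell and cytotoxic list, 7 of 9 genes were found and 0 passed, KLRK1 being at 0 in every HGA. The macrophage list had 9 of 10 genes tested and 2 called (22.2%, beside 25.1% of all tested genes), both as higher in AGASAC. Skeletal muscle markers, which belong to none of the tumors, summed to 8.50 to 858 CPM in primary AGASAC and to at most 23.8 in HGA and 4.22 in the metastases. The part of immune cell content in the differences of the checkpoint genes was not tested.

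PDCD1 was most like FUT2 (r = 0.909), CP (0.905) and GCGR (0.904) over the 25 samples, and like HOPX (0.725), CP (0.720) and GANC (0.677) after subtraction of the group means. On the latter scale its r was 0.416 with the T-cell marker sum and 0.393 with CD3E. In RefSeq's UU_Cfam_GSD_1.0 assembly, which is not the build of the counts, PDCD1 is neighbored by GAL3ST2, NEU4 and RTP5. GAL3ST2 had a mean of 0.153 ± 0.390 CPM in HGA, 65.4 ± 27.1 in primary AGASAC and 86.2 ± 36.3 in the metastases, and NEU4 0.386 ± 1.03, 28.3 ± 18.5 and 45.7 ± 47.2. RTP5 was at 0 in every HGA. These neighbors thus had the same group pattern as PDCD1, and the authors counted reads on gene ends extended by 2 kilobases. Within the 15 AGASAC samples, of which 8 come from 4 dogs, the r of PDCD1 was 0.315 with GAL3ST2, 0.309 with NEU4 and 0.504 with CD3E. Whether reads of a neighbor were counted on PDCD1 was not tested.

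Neighbors of the other members had the group pattern of the member in some cases and not in others. CTLA4 lies between CD28 and ICOS, 2 activating receptors of T cells whose means were also lower in HGA (1.06 CPM for CD28 and 0.195 for ICOS) than in primary AGASAC (2.56 and 9.91), and its r with ICOS was 0.546 over the 25 samples after subtraction of the group means. LAG3 lies beside CD4 and PTMS, and its r on the same scale was 0.656 with PTMS and −0.163 with CD4. IDO1 lies beside IDO2, a related enzyme that had the reverse pattern, at 7.41 ± 3.08 CPM in HGA, 0.599 ± 1.13 in primary AGASAC and 0.373 ± 0.283 in the metastases. CD80 lies beside TIMMDC1, which like CD80 had a higher mean in HGA (62.6 CPM) than in primary AGASAC (27.7). CD274 and PDCD1LG2 are close neighbors, and CD274 was most like CHIC1 (0.819), SPN (0.812) and PLAC8 (0.799), and TMX4 (0.776), PLAC8 (0.758) and IL7R (0.735) after subtraction of the group means. SPN and IL7R are leukocyte genes.

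The wider pathways were described from lists of genes chosen by function. Of 28 other co-inhibitory genes, 25 were found and 15 tested in HGA versus AGASAC, and 7 were called, 4 as higher in HGA and 3 as higher in AGASAC, beside 12.6% and 12.5% of all tested genes. Those higher in HGA were SIRPA, the receptor of CD47 (log2FC 3.31), LGALS3, a galectin that binds LAG3 (3.03), VSIR, which encodes VISTA (2.85), and NT5E, which makes adenosine (1.67). Those higher in AGASAC were PVR, the ligand of TIGIT (−2.09), LGALS9 (−1.97) and TNFRSF14, the partner of BTLA (−1.65). The call of NT5E was lost in 13 of the 21 fits that left out a tumor. PVR had a mean of 3.92 ± 2.00 CPM in HGA and 17 ± 10.6 in primary AGASAC, so that TIGIT and its ligand had the same sign, though only the ligand was called. The median log2FC of the list was −0.08, beside −0.03 over all tested genes. In HGA versus metastases 5 of 18 tested genes were called, namely IDO2, LGALS3 and SIRPA as higher in HGA and PVR and TNFRSF14 as higher in metastases, where 8.4% and 7.69% of all tested genes were called in these directions. The call of TNFRSF14 was lost in 10 of the 14 fits that left out a sample, and that of PVR in 2. IDO2, with 7 to 39 counts per HGA and 0 to 2 per metastasis, passed the filter through its counts in HGA. Nothing is therefore read from the share of 5 of 18.

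Of 18 co-stimulatory genes, all found, 5 were tested in HGA versus AGASAC and 3 called, beside 25.1% of all tested genes. TNFRSF18, which encodes GITR, was higher in HGA (log2FC 5.89), at 69.3 ± 23.4 CPM beside 1.15 ± 1.71 in primary AGASAC. CD58, the ligand of CD2, and ICOSLG, the ligand of ICOS, were higher in AGASAC (−2.47 and −1.83), the call of ICOSLG being lost in 3 of 21 fits that left out a tumor. HGA versus metastases called 3 of 6 tested genes, beside 16.1% of all tested genes. These were TNFRSF18 (5.52), CD58 (−2.73) and also ICOS (−4.71), which had 5 counts in all HGA and 16 to 24 in each metastasis. TNFRSF18 passed the filter through its counts in HGA and ICOS through those in the metastases, so nothing is read from the shares of this list.

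Among the interferon gamma pathway genes, 17 of 19 were found, 14 tested and 7 called in HGA versus AGASAC, beside 25.1% of all tested genes. IRF1, the transcription factor upstream of CD274 and IDO1, was higher in AGASAC (log2FC −2.24), at 29.5 ± 13.0 CPM in HGA and 142 ± 83.8 in primary AGASAC. The chemokine CXCL10 (−3.41), the MHC class II activator CIITA (−2.27) and the receptor chain IFNGR1 (−2.13) had the same sign. JAK2 (2.55) and SOCS1 (2.21), a kinase and an inhibitor of the same pathway, were higher in HGA. Of these, CIITA lost its call in 10 of 21 fits that left out a tumor and SOCS1 in 3. HGA versus metastases called 4 of 14, beside 16.1% of all tested genes. These were IRF1, CXCL10 and IFNGR1 as higher in metastases and JAK2 as higher in HGA. Leaving out a sample lost the call of IFNGR1 in 11 of 14 fits, of JAK2 in 10 and of CXCL10 in 3. The list's median log2FC was −0.93 in HGA versus AGASAC, beside −0.03 over all tested genes. After subtraction of the group means, the r of IDO1 with CXCL10 was 0.588 over the 25 samples, and that of CD274 with CXCL10 was 0.585. With IRF1 they were 0.302 and 0.136.

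Among 10 symbols of kynurenine enzymes and related genes, 7 were found, 6 tested and 4 called in HGA versus AGASAC. Over all tested genes the share called was 25.1%. KYNU and HAAO, which act on kynurenine and on 3-hydroxyanthranilate downstream of IDO1, were higher in AGASAC (log2FC −8.96 and −5.37), as was WARS, the tryptophan tRNA ligase (−1.08). KYNU had 0 to 11 counts in HGA and 0 to 4824 in primary AGASAC, and it passed the filter in only 11 of the 21 fits that left out a tumor. HAAO had 0 to 7 counts in HGA and 17 to 167 in AGASAC. KYAT3, which turns kynurenine to kynurenic acid, was higher in HGA (4.5), at 101 ± 31 CPM beside 4.55 ± 2.72. The same 4 genes, of 6 tested, were called in HGA versus metastases with the same signs, beside 16.1% of all tested genes. Since KYNU and HAAO passed the filter of HGA versus AGASAC through their counts in AGASAC, nothing is read from the shares of this list.

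**Figure D5:**
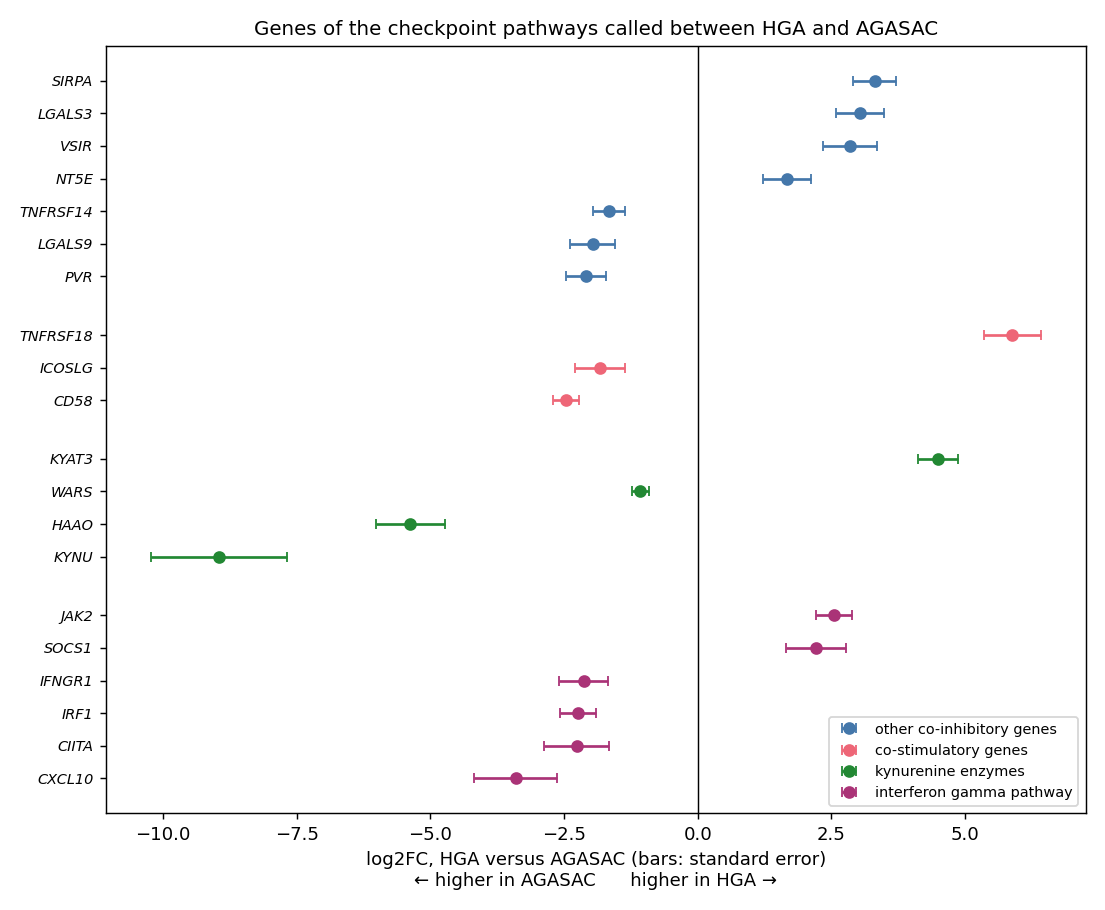
Fitted log2FC of HGA versus AGASAC (horizontal axis, log2 scale, with standard errors as bars) for the genes of 4 pathway lists that edgeR called and that are named in the text, colored by list. Points to the right are higher in HGA, such as TNFRSF18 at 5.89, and points to the left are higher in AGASAC, such as KYNU at −8.96.

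Signal partners inside T cells, such as LCK, CD247 and PTPN6, had 0 of 5 tested genes called by edgeR in HGA versus AGASAC. In HGA versus metastases it was also 0 of 5, beside 25.1% and 16.1% of all tested genes in these comparisons. Their median log2FC was −1.12 and −1.24. In metastases versus primary tumors 0 genes of any of these lists were called.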

How the data were processed

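Total RNA from 25 canine FFPE tumors was sequenced as QuantSeq 3′ libraries. The authors trimmed and filtered reads with Cutadapt, aligned them with STAR to CanFam3.1 and deposited whole-number read counts per gene and sample, without normalization, from a pair of featureCounts rounds, the later one on gene ends extended by 2 kilobases. Multi-mapped reads were kept and spread evenly over their locations, so counts of genes with near-identical copies are uncertain. Versions, and whether counting used strand, are not given in the sources used here. The table also holds the authors' own comparison (mean, fold change, its error, p-values), which was not used, nor were 25 columns of normalized values.

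The tests were run with edgeR 4.0.16 in R 4.3.3, using filterByExpr (minimum count 10, minimum total 15), TMM factors, a quasi-likelihood test without covariates and p-values adjusted by Benjamini-Yekutieli across every gene tested. Thresholds were an adjusted p of 0.05 and an absolute log2FC of 1. The SE is the log2FC divided by the root of F. Levels of genes that failed the filter were compared in a fit without one, added after the counts were seen. Groups came from the sample labels. Metastasis and primary tumor of a dog come from 1 animal and deviated together (r across genes 0.422 to 0.699 in 4 of 4 dogs), whereas same-numbered samples of different dogs did not (r −0.085 to 0.054). No library was a duplicate of another of its group: chi-square per degree of freedom was 13.5 for the closest pair. Pairs from different groups were not compared in this way. Counting intervals are exact at 95%. Figures were drawn with matplotlib 3.10.9.

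Alternatives were DESeq2 1.42.0 (Wald test, no shrinkage), other scaling, filters and adjustment, all 25 samples in one fit, extraction batch, a replicate block and leaving out each sample. The tests were first tried on simulated counts. Named genes are the 10 checkpoint genes, at most the 8 called genes with the smallest p of each pathway list, fixed marker genes, and the 3 genes most alike to each member with a median count of at least 10. KRT8 and KRT79 (from the marker lists), neighboring genes, signal partners that were not called and genes set beside a member in a correlation were named after values were seen. Results for 2 further genes that these rules name are not reported here. The members and all lists were chosen with earlier results of these data known.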

Additional observations from a re-analysis of the deposited data

Results flagged for a closer look

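Each checkpoint gene was examined in the 10 HGA and in the 4 metastases, and 5 of these 20 groups held a sample far from the rest. The 11 primary AGASAC were not examined in this way, so single high values there are outside this count. The rule flags about 1 in 20 groups of normally distributed values. Groups that are mostly at 0 counts are not of that kind, so the number flagged is not read against this rate. HGA 8 accounted for 3 of the 5 flagged groups. It had 11.1 CPM of CD274 (27 counts), with 4.30 CPM in the next HGA. It had 3.70 CPM of CTLA4 (9 counts) beside 1.29 in the next tumor, and 3.70 CPM of IDO1 (9 counts) beside 0.362. The same tumor was the highest of the 10 HGA in the summed CPM of markers of T cells, NK and cytotoxic cells, B cells, plasma cells, macrophages, lymph node stroma and skeletal muscle. In HGA 92.2% of the plasma-cell sum came from SDC1, itself called as higher in HGA than in AGASAC (log2FC 5.23), so that sum is not read as plasma cells. HGA 8 had 0 counts of CD80. HGA 10 had the highest TIGIT level of its group at 0.860 CPM, which rests on 2 counts and lies within the 3 counts that a count of 0 allows. Metastasis 4 had 22.4 CPM of IDO1 (70 counts) where the next metastasis had 2.92.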

How the results depend on the processing

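Over the alternatives, 1564 recomputed log2FC of named genes kept their sign and their side of the thresholds, 171 kept the sign and lost the call, 19 gained one and 34 changed sign. PDCD1 kept a negative sign in each alternative of both comparisons with HGA. In HGA versus AGASAC, where 0 checkpoint genes were called, the count was 1 with library size alone, with Benjamini-Hochberg adjustment, with the extraction batch as a covariate, with at least 10 counts in every sample and without HGA 4 and HGA 10, 2 with all 25 samples in one fit and without a filter, and 3 with DESeq2. Leaving out a tumor gave 0 to 1. Benjamini-Hochberg adjustment in the fit without a filter called 6 members (PDCD1, LAG3, IDO1, TIGIT, CD86 and CD80) among 7124 genes in this comparison and 4 (PDCD1, LAG3, IDO1 and TIGIT) among 4373 genes in HGA versus metastases. Library size alone also moved the median log2FC of all genes from −0.03 to −0.33, and the split of called genes from 1523 higher in HGA and 1509 higher in AGASAC to 1053 and 2156. The 3032 genes called became 262, 637 and 338 within extraction batches 5, 6 and 8, where 5 or 6 samples were left, and 1452 with 10 counts in every sample. In HGA versus metastases, the 1 member called became 2 with all 25 samples in one fit and 0 with at least 10 counts in every sample, where PDCD1 was not tested, and the 2124 genes called became 3536 with Benjamini-Hochberg adjustment, 1153 with 10 counts in every sample and 3211 with DESeq2. In metastases versus primary tumors 5 genes were called by DESeq2.

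A replicate block left 0 members called in HGA versus AGASAC and, without a filter, PDCD1 and LAG3; in HGA versus metastases it left 0 members and 762 genes. The samples of these comparisons share only a number and not a dog. With the dog as a block, metastases versus primary tumors had 1 gene called and 0 members, and the pairing turned CD86 to −0.080, PDCD1LG2 to 0.27 and TIGIT to 0.40.

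Signs turned where differences were small. In HGA versus AGASAC, CD276 was 0.21 and 0.19 within batches 5 and 8 and 0.74 within naming series A of the sequencing files, PDCD1LG2 was −0.14 with library size alone and −0.055 and −0.57 within batches 5 and 6, CD274 was 0.36 within batch 5 and SOCS1 −0.033 within batch 6. In metastases versus primary tumors, all 25 samples or all 11 primary tumors in the fit gave CTLA4 −0.35 (−0.35 without a filter) and −0.33, TIGIT 0.37 and 0.37, and CD86 −0.055 and −0.054. Leaving out a sample gave ranges that spanned 0 for CD276 (−0.26 to 0.044) and PDCD1LG2 (−0.23 to 0.41, −0.020 without AGASAC 11) in HGA versus AGASAC, and for CD274 (−0.020 to 0.59), CD276 (−0.83 to 0.34), CD86 (−0.58 to 0.33), CTLA4 (−0.17 to 1.03), IDO1 (−0.27 to 1.73), PDCD1LG2 (−0.63 to 0.77) and TIGIT (−0.46 to 0.75, with 0.13 without AGASAC 2 and 0.23 without metastasis 1) in metastases versus primary tumors. The causes were not tested. Depth limits the values of PDCD1, TIGIT, CTLA4, LAG3 and IDO1 in HGA, where the median was 0 counts.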
